A study of Mus musculus with 6 samples.

Results

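The constant regions of the immunoglobulin heavy chain are the parts of an antibody that fix its class. The 8 genes described here, Ighm, Ighd, Ighg3, Ighg1, Ighg2b, Ighg2c, Ighe and Igha, were taken by symbol from a table of 27761 genes, and each symbol had 1 row. They were measured as messenger RNA in B220+ cells of mouse bone marrow, in 3 libraries labelled WT and 3 labelled PELI2-CKO, whose genotype is given as PELI2 knockout. B220 is the form of the surface protein CD45 carried by B-lineage cells and by plasmacytoid dendritic cells. The libraries labelled PELI2-CKO are called CKO-labelled from here on. The strain, sex and age of the mice, the deleted part of Peli2 and what drove the deletion are not given in the sources used here.

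A B cell first joins its rearranged variable region to Ighm, and a mature naive B cell makes Ighm and Ighd from the same primary transcript by alternative splicing. Class switch recombination later deletes the DNA between the variable region and a downstream constant gene, so that the same variable region is joined to an IgG, IgE or IgA constant region. Plasma cells, many of which live in bone marrow, secrete these antibodies and hold very large amounts of heavy and light chain RNA. Unswitched constant genes also give germline transcripts from their own promoters, and a value per gene holds germline, membrane and secreted transcripts together.

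All 8 genes lie on the minus strand of chromosome 12 (GRCm38) with positions identical in the deposited table and in GENCODE M21. From the upstream end these are Ighm (ENSMUSG00000076617, 113418558 to 113422730), Ighd (ENSMUSG00000104213, 113406604 to 113416324), Ighg3 (ENSMUSG00000076615, 113356224 to 113361232), Ighg1 (ENSMUSG00000076614, 113325240 to 113330523), Ighg2b (ENSMUSG00000076613, 113302965 to 113307933), Ighg2c (ENSMUSG00000076612, 113285325 to 113288932), Ighe (ENSMUSG00000087642, 113269260 to 113273248) and Igha (ENSMUSG00000095079, 113254830 to 113260236). Igha starts 162.5 kb downstream of the start of Ighm. Each gene has 2 annotated transcripts.

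The IgG subclasses are told apart by their sequences, among them the hinge, the flexible stretch between the antigen-binding arms and the stem, which is exon 2 of these genes. The hinge exons are shown because the share of Ighg1 within IgG stood apart between the groups, and the capitals mark in-frame cysteine codons, the source of the bonds that join both heavy chains.
Ighg3, chr12:113360529-113360576: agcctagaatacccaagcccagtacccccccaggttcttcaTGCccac
Ighg1, chr12:113329844-113329882: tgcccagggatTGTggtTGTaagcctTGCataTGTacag
Ighg2b, chr12:113307261-113307326: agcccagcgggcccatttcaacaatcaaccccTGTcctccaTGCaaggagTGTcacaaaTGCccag
Ighg2c, chr12:113288263-113288325: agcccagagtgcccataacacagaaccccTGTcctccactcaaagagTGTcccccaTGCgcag
The Ighg1 hinge was the shortest of the 4, at 39 bases, and matched that of Ighg2b at 42.4% of aligned positions and that of Ighg2c at 39.7%. The hinges of Ighg2b and Ighg2c matched at 77.3%, and their CH2 exons, which carry part of the stem, at 94.2%, while their CH3 exons matched at 76.2%. Of all stretches of 50 bases, the read length used, 0.393% of those in Ighg1 transcripts also occurred in another annotated gene, against 4.148% for Ighg2b, 5.486% for Ighg2c and 1.583% for Ighg3, in each case another IgG gene. For Ighm, Ighd, Igha and Ighe this share was 0. By exact match, reads from Ighg2b and Ighg2c can therefore be exchanged over a small part of their length, and reads from Ighg1 over hardly any. Stretches alike but for a few bases were not counted, so these shares are a lower limit. The reference carries Ighg2c. Some mouse strains carry Ighg2a in its place, which was not analysed here.

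A second set of sequences concerns secretion. IgM and IgA are secreted as polymers held together by the J chain (gene Jchain), through a tailpiece that only the secreted transcript encodes. The coding bases that the secreted transcript has beyond the membrane splice site are given for the last secreted exon, with the cysteine codon in capitals.
Ighm, chr12:113420870-113420928: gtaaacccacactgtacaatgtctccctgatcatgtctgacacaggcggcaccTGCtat
Igha, chr12:113258771-113258829: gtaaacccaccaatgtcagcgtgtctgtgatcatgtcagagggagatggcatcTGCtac
Both tailpieces have 59 bases, and their 1 cysteine codon is the next to last codon before the stop. The same stretch of Ighg1 has only 5 bases and no cysteine codon.

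Values are in FPKM, fragments scaled to transcript length and to the mapped fragments of the library. Levels of different genes can thus be compared per length, as far as the annotated lengths hold. The longest annotated transcript has 1214 bases for Ighg2c, against 2566 for Ighg2b and 2482 for Ighg1. Library depth, worked out from the steps between low values, was 16600000 to 18100000 reads. Peli2 was not lower under the knockout label: it stood at 2.03, 2.54 and 1.99 FPKM in WT, against 3.07, 2.70 and 2.47 FPKM in the CKO-labelled libraries (two-sided exact permutation test, p = 0.2, n = 3 against 3, where 0.1 is the smallest p possible). The value does not separate exons, and directions are given by label throughout. Whether replicates came from separate animals is not given, so p-values measure the spread between these samples, which may be technical.

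By mean level the order was Ighm, Igha, Ighg2c, Ighg2b, Ighd, Ighg1, Ighg3 and Ighe. Ighm ranked 8 and Igha 14 among all 27761 rows, and the 8 genes together held 1.25% to 1.77% of all FPKM. Ighm lay above Igha in 5 of 6 libraries, the exception being PELI2-CKO replicate 1. Ighg2c lay above Ighg2b in 5 of 6, Ighg2b above Ighd in 5 of 6 and Ighd above Ighg1 in 4 of 6, so these neighbours overlapped in range. Igha stood above Ighg2c, Ighg1 above Ighg3, and Ighg3 above Ighe in all 6 libraries, with ranges that did not overlap.

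**Figure D1:**
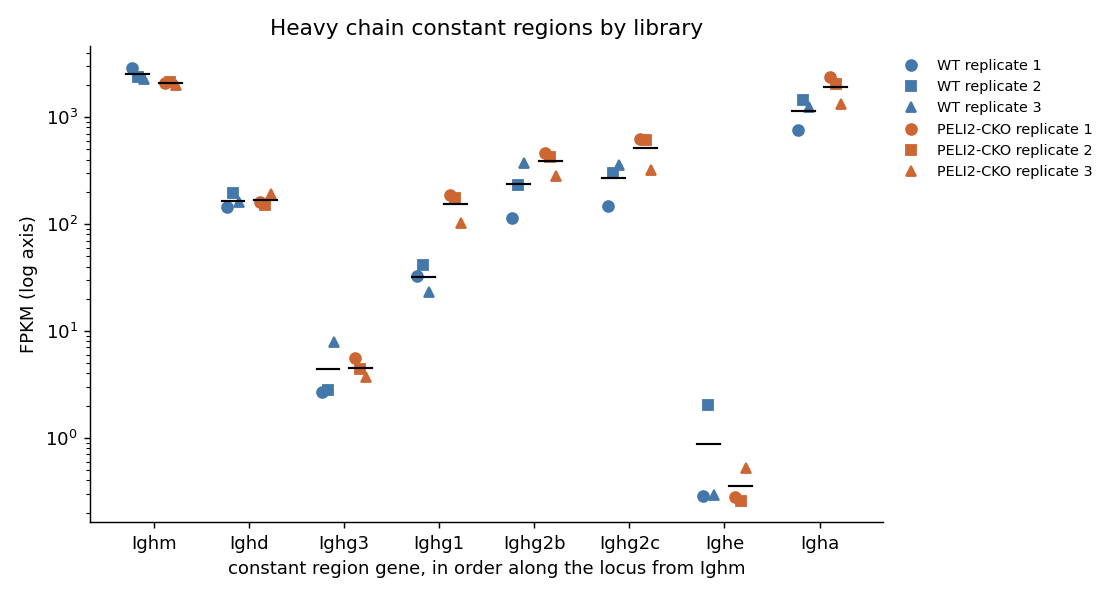
FPKM on a log axis of the 8 constant region genes in each of the 6 libraries (symbols by replicate, colours by group, black bars at group means), with genes in their order along the locus. Ighm and Ighg1 are the tested genes whose groups do not overlap, with Ighm lower and Ighg1 higher in the CKO-labelled libraries.

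The groups were compared with limma on log2(FPKM + 1) over the 12953 genes that reached an FPKM of 1 in 3 libraries or more. On this scale the change of a gene with low values is understated. The filter took 7 of the 8 genes and left out Ighe. At an adjusted p under 0.05 over all genes, 0 of the 7 passed, where the background was 0.0232% of genes tested. At an unadjusted p under 0.05, 3 were higher in the CKO-labelled libraries (Ighg1, Ighg2c and Igha) and 0 lower, where the background was 9.2% higher and 8.88% lower, or 18.1% in either direction. The median log2 fold change of the 7 was 0.76, and that of all genes tested was -0.01. Without WT replicate 1 the median of the 7 was 0.38. Groups did not overlap for Ighg1, where the background of genes apart and higher was 11.5%, and for Ighm, where the background of genes apart and lower was 14.3%, or 25.8% in either direction.

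Ighm, the constant region of the first antibody class, stood at 2898, 2351 and 2258 FPKM in WT, against 2086, 2111 and 1979 FPKM in the CKO-labelled libraries. Every CKO-labelled library was below every WT library, and WT replicate 1 was the highest. The means were 2502 ± 346 and 2058 ± 70.0 FPKM (SD, n = 3), a ratio of 0.823. The log2 fold change was -0.27 with a standard error of 0.13 and did not pass (limma adjusted p = 0.321), and without WT replicate 1 it was -0.16. In bulk RNA, fewer cells of a type and less RNA per cell cannot be told apart.

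Ighd, the constant region that naive B cells splice from the same primary transcript as Ighm, stood at 143, 194 and 159 FPKM in WT, against 159, 149 and 191 FPKM in the CKO-labelled libraries. The groups overlapped throughout. The log2 fold change was 0.01 with a standard error of 0.14 (limma adjusted p = 0.972), and its sign turned under several settings, among them rescaling to a common total. The log2 ratio of Ighm to Ighd was 4.33, 3.59 and 3.82 in WT and 3.70, 3.81 and 3.37 in the CKO-labelled libraries, with overlap between the groups (difference -0.28, exact permutation test, p = 0.4, adjusted over 6 sums and ratios 0.48). The difference was -0.07 without WT replicate 1 and -0.15 without PELI2-CKO replicate 3.

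Zfp318, the nuclear protein needed for naive B cells to make Ighd rather than end the transcript after Ighm, had levels that correlated with those of Ighd over the libraries. It stood at 10.3, 14.6 and 11.4 FPKM in WT, against 12.8, 10.9 and 13.5 FPKM in the CKO-labelled libraries. WT replicate 2 was the highest of the 6 for both genes and WT replicate 1 the lowest. Over the 6 libraries Pearson's r between Ighd and Zfp318 on log2(FPKM + 1) was 0.934 and Spearman's rho was 0.943, a description over points that share libraries and cell make-up, and Zfp318 ranked 40 among all genes tested by its r to Ighd. The log2 fold change of Zfp318 was 0.04 (limma adjusted p = 0.901), and its group means were 12.1 ± 2.2 and 12.4 ± 1.31 FPKM (SD, n = 3).

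Ighg1, an IgG subclass that in mice is typical of responses driven by interleukin 4, had the largest log2 fold change of the 7 tested genes. It stood at 32.4, 41.1 and 23.2 FPKM in WT, against 186, 176 and 102 FPKM in the CKO-labelled libraries. The lowest CKO-labelled library, replicate 3, was above the highest WT library, replicate 2. The means were 32.2 ± 8.92 and 155 ± 45.7 FPKM (SD, n = 3), a ratio of 4.81, and the log2 fold change was 2.22 with a standard error of 0.28. This was the third highest log2 fold change of the 12953 genes, and the gene ranked 16 by p. It did not pass over all genes (limma adjusted p = 0.0908), and did so without PELI2-CKO replicate 3 (log2 fold change 2.49, limma adjusted p = 0.0478). With any other single library left out it did not pass, at a limma adjusted p from 0.132 to 0.368. Each WT library held at least 430 reads of Ighg1, so counting error was small beside the spread between libraries.

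Ighg2c and Ighg2b, neighbours at the downstream end of the IgG cluster and the most abundant IgG genes here, kept the same rank order over the libraries. Ighg2c stood at 147, 298 and 356 FPKM in WT, against 621, 605 and 321 FPKM in the CKO-labelled libraries. Ighg2b stood at 115, 232 and 370 FPKM in WT, against 464, 424 and 283 FPKM in the CKO-labelled libraries. For both, PELI2-CKO replicate 3 lay inside the WT range and WT replicate 1 was far below the other WT libraries. The log2 fold change was 0.98 with a standard error of 0.39 for Ighg2c (limma adjusted p = 0.261) and 0.83 with a standard error of 0.42 for Ighg2b (limma adjusted p = 0.349). Without WT replicate 1 they were 0.60 and 0.38. Over the 6 libraries the 2 genes had Pearson's r of 0.964.

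Ighg3, an IgG subclass known for responses to polysaccharides, was the rarest IgG. It stood at 2.67, 2.78 and 7.87 FPKM in WT, against 5.56, 4.37 and 3.70 FPKM in the CKO-labelled libraries. WT replicate 3 was the highest, and the CKO-labelled libraries lay between the WT values. The log2 fold change was 0.14 with a standard error of 0.35 (limma adjusted p = 0.853), it was 0.56 without WT replicate 3, and its sign turned without WT replicate 1 or 2.

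Ighe, the constant region of the antibody class bound by mast cells and basophils, was near the limit of this depth in most libraries. It stood at 0.285, 2.05 and 0.293 FPKM in WT, against 0.279, 0.259 and 0.524 FPKM in the CKO-labelled libraries. WT replicate 2 held 46.5 to 49.7 reads of Ighe, depending on which transcript the reads are assigned to, against 6.05 to 13.8 reads in the other 5 libraries. The summed level of 7 marker genes of basophils and mast cells was also highest in WT replicate 2 and next in PELI2-CKO replicate 3, at 48.3, 115 and 70.7 FPKM in WT, against 56.6, 59.8 and 99.9 FPKM in the CKO-labelled libraries. Most of this sum came from the basophil proteases Prss34 and Mcpt8. Prss34 stood at 32.1, 69.8 and 45.0 FPKM in WT, against 35.0, 38.0 and 64.4 FPKM in the CKO-labelled libraries. Mcpt8 stood at 9.90, 30.3 and 15.6 FPKM in WT, against 14.2, 14.2 and 21.2 FPKM in the CKO-labelled libraries. Cpa3, a mast cell protease, and Gata2, a transcription factor of both cell types, were instead highest in PELI2-CKO replicate 3, at 5.77 and 3.22 FPKM, against 5.31 and 2.93 FPKM in WT replicate 2. No marker of the list was listed at 0, and their part in the Ighe values was not tested.

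Igha, the antibody class of mucosal surfaces, stood at 753, 1455 and 1230 FPKM in WT, against 2390, 2053 and 1334 FPKM in the CKO-labelled libraries. PELI2-CKO replicates 1 and 2 were above all WT libraries, and replicate 3 lay inside the WT range. The means were 1146 ± 359 and 1926 ± 539 FPKM (SD, n = 3), and the log2 fold change was 0.76 with a standard error of 0.31 (limma adjusted p = 0.264). Without WT replicate 1 it was 0.48.

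**Figure D2:**
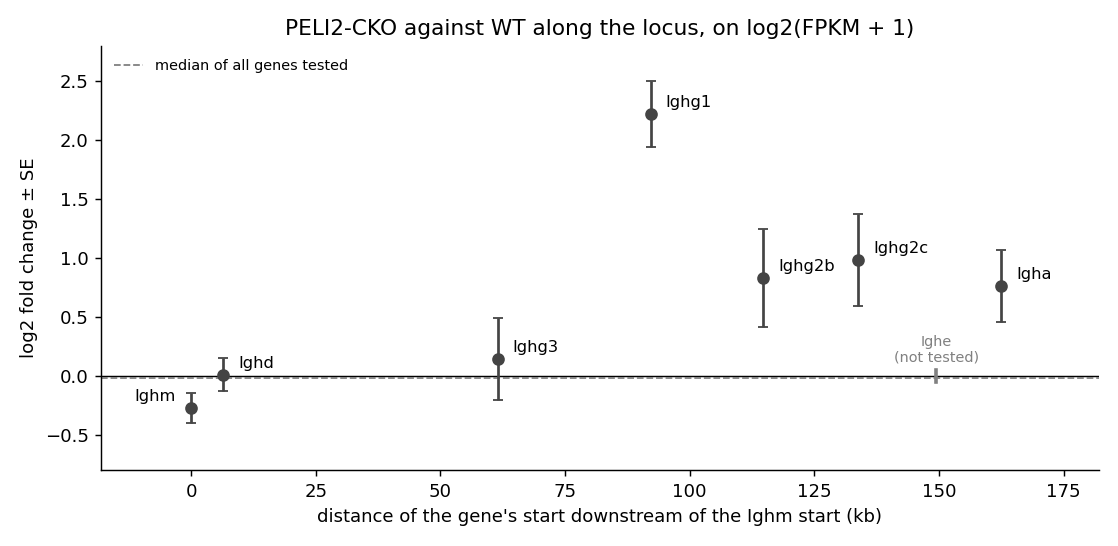
Log2 fold change of each tested constant region between the CKO-labelled libraries and WT, on log2(FPKM + 1) with its limma standard error as bars, against the distance in kb of the gene's start downstream of the Ighm start. The largest value is that of Ighg1 at 2.22, and the dashed line at -0.01 is the median of all genes tested.

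The share of each class among the 8 genes does not depend on how libraries are scaled against each other. Ighm made up 70.8%, 51.4% and 51.3% of constant region FPKM in WT and 35.3%, 38.2% and 47.0% in the CKO-labelled libraries. Igha made up 18.4%, 31.8% and 27.9% in WT and 40.4%, 37.2% and 31.7% in the CKO-labelled libraries. Every WT library held a larger share of Ighm than any CKO-labelled library, while the shares of Igha overlapped by a margin set by WT replicate 2 and PELI2-CKO replicate 3. The difference in mean share was -17.7 percentage points for Ighm (exact permutation test, p = 0.1, adjusted over 8 shares 0.4) and 10.4 for Igha (exact permutation test, p = 0.2, adjusted 0.4). Without WT replicate 1 these differences were -11.2 and 6.56 percentage points. Shares sum to the whole, so a larger share of 1 class lowers the others.

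Among the rarer classes, Ighg1 made up 0.791%, 0.897% and 0.527% in WT and 3.15%, 3.19% and 2.43% in the CKO-labelled libraries, groups that did not overlap (exact permutation test, p = 0.1, adjusted over 8 shares 0.4). Ighg2c made up 3.59%, 6.51% and 8.09% in WT and 10.5%, 11% and 7.61% in the CKO-labelled libraries, where replicate 3 lay inside the WT range. Ighg2b ranged from 2.8% to 8.39% in WT and from 6.72% to 7.84% in the CKO-labelled libraries. Ighd ranged from 3.49% to 4.25% in WT and from 2.69% to 4.53% in the CKO-labelled libraries. Ighg3 stayed at or below 0.179% and Ighe at or below 0.0448% in every library. No share could reach an exact p under 0.1 with 3 against 3 libraries.

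**Figure D3:**
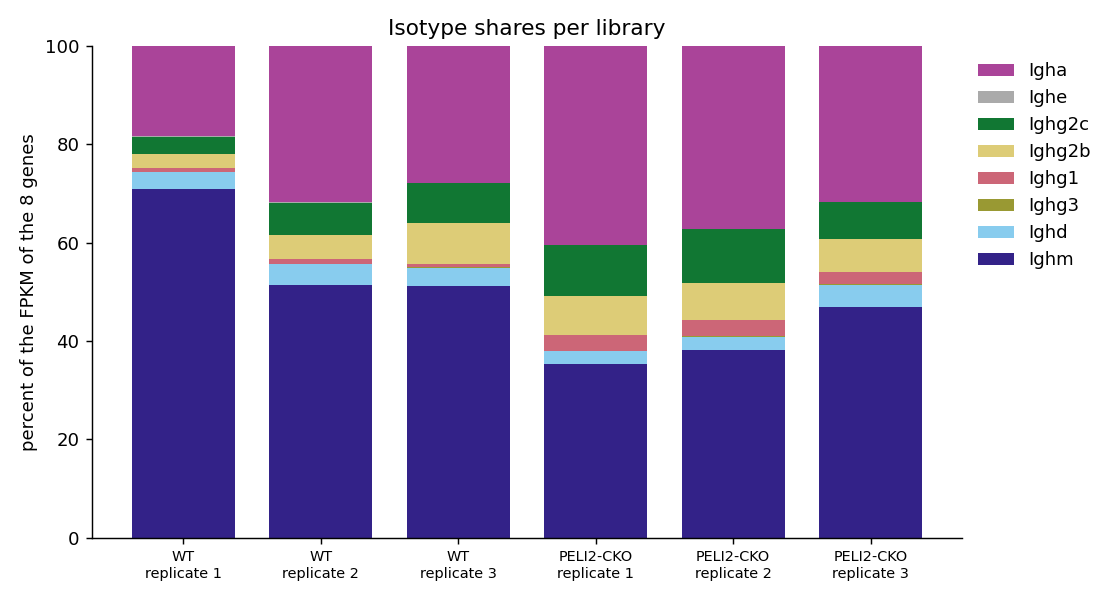
Stacked bars of the percent of constant region FPKM taken by each of the 8 genes, 1 bar per library. Ighm takes 51.3% to 70.8% of the bar in WT and 35.3% to 47.0% in the CKO-labelled libraries, and Ighg1 is the thin band that is wider in all 3 of the latter.

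The 6 class-switched genes together made up 25.7%, 44.4% and 45.1% of constant region FPKM in WT and 62.0%, 59.1% and 48.5% in the CKO-labelled libraries. The groups did not overlap, though WT replicate 3 and PELI2-CKO replicate 3 were close. The means were 38.4% ± 11 and 56.5% ± 7.10 (SD, n = 3), a difference of 18.2 percentage points (exact permutation test, p = 0.1, adjusted over 6 sums and ratios 0.2), or 11.8 without WT replicate 1. The summed FPKM of the 8 genes was 4090, 4575 and 4406 in WT and 5911, 5523 and 4215 in the CKO-labelled libraries, with overlap (exact permutation test, p = 0.3, adjusted 0.45). The difference in this sum of 859 FPKM was 512 without PELI2-CKO replicate 1 and 1360 without PELI2-CKO replicate 3.

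Within IgG the share of Ighg1 was nearly constant over the CKO-labelled libraries. It made up 14.6%, 14.6% and 14.4% of the FPKM of the 4 IgG genes there, against 10.9%, 7.16% and 3.07% in WT. The spread over the CKO-labelled libraries (SD 0.088) was far smaller than over WT (SD 3.93, n = 3), and every CKO-labelled library was above every WT library (exact permutation test, p = 0.1, adjusted over 6 sums and ratios 0.2). Ighg2c made up 47.1% to 52.0% of IgG in WT and 45.2% to 50.0% in the CKO-labelled libraries, and Ighg2b 38.7% to 48.8% and 35.0% to 39.9%. The SD of the Ighg2c share was 2.44 in WT and 2.50 in the CKO-labelled libraries (n = 3). These ranges overlapped, and of these 3 genes only the share of Ighg1 stood apart between the groups.

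**Figure D4:**
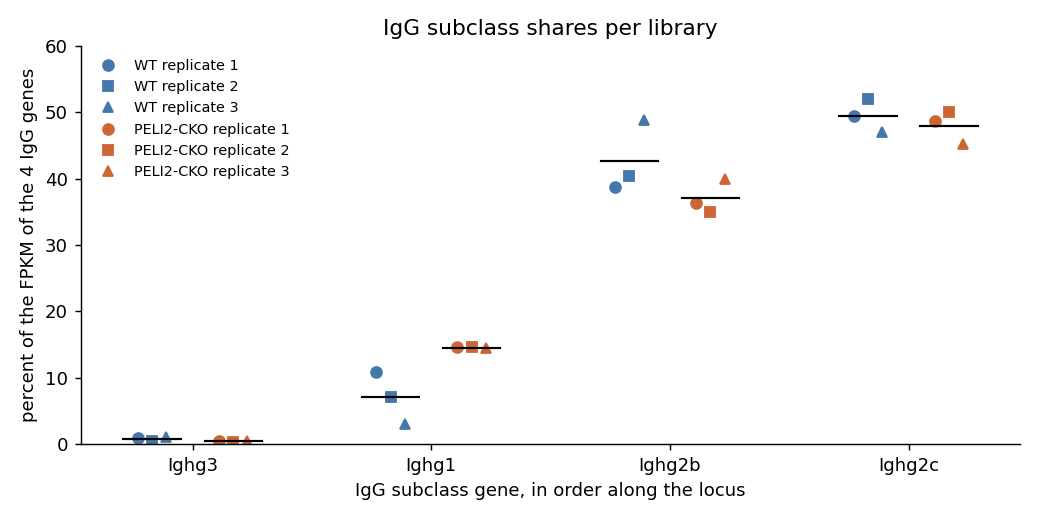
Percent of the FPKM of the 4 IgG genes taken by each subclass gene in each library (symbols by replicate, colours by group, black bars at group means). The 3 libraries labelled PELI2-CKO sit together at 14.4% to 14.6% for Ighg1, above the WT libraries at 3.07% to 10.9%.

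Among the 6 switched genes Igha took most, at 71.7%, 71.7% and 61.9% in WT and 65.2%, 62.9% and 65.3% in the CKO-labelled libraries. The ranges overlapped, and the higher mean share of Igha among all 8 genes under the knockout label did not hold among the switched genes alone. The summed IgG level relative to Igha was 0.394, 0.394 and 0.615 in WT and 0.534, 0.589 and 0.532 in the CKO-labelled libraries, again with overlap. For Ighg1 relative to Igha the groups stood apart, at 0.0430, 0.0282 and 0.0189 in WT and 0.0778, 0.0859 and 0.0768 in the CKO-labelled libraries.

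The J chain gives a comparison with a partner made by the same antibody-secreting cells. Jchain stood at 139, 273 and 238 FPKM in WT, against 417, 379 and 264 FPKM in the CKO-labelled libraries. The ratio of Igha to Jchain was 5.40, 5.33 and 5.17 in WT and 5.74, 5.42 and 5.06 in the CKO-labelled libraries, so while Igha itself ranged from 753 to 2390 FPKM the ratio hardly varied. On the log2 scale this ratio differed between the groups by 0.03 (exact permutation test, p = 0.7, adjusted over 6 sums and ratios 0.7). Jchain was the gene with the highest Pearson's r to Igha over the 6 libraries among all genes tested, at 0.995.

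Ighg1 did not keep a constant ratio to Jchain. The ratio was 0.232, 0.150 and 0.0975 in WT and 0.447, 0.465 and 0.389 in the CKO-labelled libraries, with no overlap. For Ighg2c the ratio was 1.05, 1.09 and 1.5 in WT and 1.49, 1.6 and 1.22 in the CKO-labelled libraries, and for Ighg2b 0.823, 0.848 and 1.55 in WT and 1.11, 1.12 and 1.07 in the CKO-labelled libraries. Both overlapped between the groups. These ratios to Jchain were looked at after the values were seen and were not tested.

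Cd79a and Cd79b encode the signalling chains that carry membrane antibody to the surface of B cells. Cd79a stood at 724, 602 and 583 FPKM in WT, against 488, 504 and 516 FPKM in the CKO-labelled libraries, groups that did not overlap (log2 fold change -0.33, limma adjusted p = 0.189). The ratio of Ighm to Cd79a was 4.0, 3.90 and 3.87 in WT and 4.27, 4.19 and 3.84 in the CKO-labelled libraries, with overlap. Both Ighm and Cd79a had a lower mean under the knockout label, neither past the threshold, and the ratio of Ighm to Cd79b, from 4.98 to 5.28 in WT and from 5.04 to 5.87 in the CKO-labelled libraries, also overlapped.

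**Figure D5:**
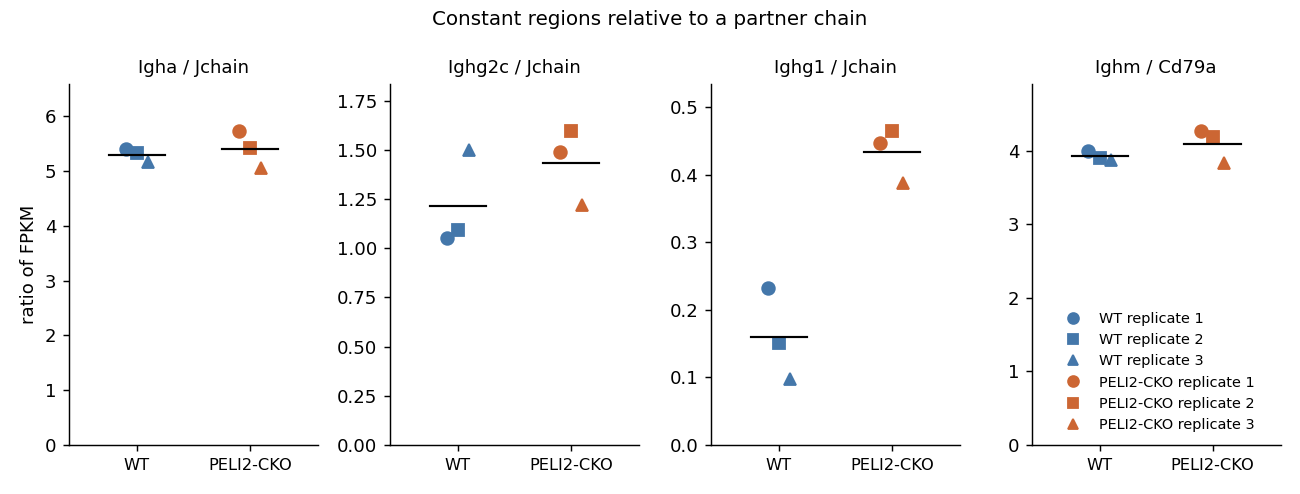
Ratio of FPKM of a constant region to a partner chain in each library (symbols by replicate, colours by group, black bars at group means), on linear axes from 0. Igha to Jchain stays between 5.06 and 5.74 and Ighm to Cd79a between 3.84 and 4.27, while Ighg1 to Jchain is 0.0975 to 0.232 in WT and 0.389 to 0.465 in the CKO-labelled libraries.

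Light chains pair with every heavy chain class. Igkc, the kappa constant region, stood at 3885, 5541 and 5271 FPKM in WT, against 8498, 7676 and 5540 FPKM in the CKO-labelled libraries, overlapping by a narrow margin. The lambda constant region Iglc1 stood at 300, 299 and 292 FPKM in WT, against 352, 292 and 279 FPKM in the CKO-labelled libraries. Iglc2 and Iglc3 share 7.7% and 10.7% of their 50-base stretches with each other and are uncertain at least to that extent. Their ratios of group means were 1.01 and 0.951. The log2 ratio of the 8 heavy chain genes to these 4 light chain genes was -0.17, -0.43 and -0.43 in WT and -0.64, -0.59 and -0.56 in the CKO-labelled libraries. The groups did not overlap (difference -0.25, exact permutation test, p = 0.1, adjusted over 6 sums and ratios 0.2), and the difference was -0.17 without WT replicate 1.

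Of the 30 tested genes of class switch recombination, 20 had a lower mean log2 level in the CKO-labelled libraries and 10 a higher one. None of the 30 (0) passed over all genes (limma), and at an unadjusted p under 0.05 there were 0 higher and 2 lower, a share of the 30 under the background of 8.88% lower. The median log2 fold change was -0.03, and it was -0.05 without WT replicate 1 and -0.10 after rescaling to a common total. The 2 genes were Xrcc6, the Ku70 subunit that holds broken ends, at 47.6 ± 5.34 FPKM in WT, against 36.3 ± 1.42 FPKM in the CKO-labelled libraries (SD, n = 3), and Lig4, the ligase, at 14.6 ± 2.39 and 10.5 ± 0.868 FPKM. Both also serve the joining of variable segments in early B cells. Trp53bp1, which protects the broken ends from resection during switching, stood at 4.65 ± 0.154 and 4.29 ± 0.132 FPKM. In the other direction Nhej1 of this list stood at 4.44 ± 0.0289 and 4.95 ± 0.410 FPKM. Of the 30, 1 (Nhej1) stood apart and higher and 6 apart and lower, where the background was 11.5% and 14.3%.

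Of 25 tested signals and factors that direct switching, 18 had a lower mean log2 level in the CKO-labelled libraries and 7 a higher one. None of the 25 (0) passed over all genes (limma). At an unadjusted p under 0.05, 3 were higher and 7 lower, where the background over all genes was 9.2% higher and 8.88% lower. The median log2 fold change was -0.09, or -0.16 after rescaling to a common total. Of the 25, 4 stood apart and higher and 11 apart and lower, where the background was 11.5% and 14.3%. Cd40, the receptor for T cell help, had groups of 10.4 ± 0.0239 and 8.45 ± 0.224 FPKM, and Tnfrsf13c, the receptor for the survival factor BAFF, of 70.7 ± 4.14 and 57.4 ± 2.45 FPKM (SD, n = 3). On the higher side Ifngr1, a receptor chain for interferon gamma, had groups of 30.6 ± 1.61 and 35.9 ± 1.55 FPKM, and Runx3, a factor of switching to IgA, of 12.1 ± 0.469 and 13.6 ± 0.170 FPKM.

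Factors that transcribe the heavy chain genes or process their RNA also had means in both directions. Of 17 tested genes 0 passed over all genes (limma). At an unadjusted p under 0.05, 4 were higher and 6 lower, where the background over all genes was 9.2% higher and 8.88% lower. The median log2 fold change was -0.10, or -0.18 after rescaling to a common total and -0.06 without WT replicate 1. Pou2af1, the coactivator of octamer factors at immunoglobulin promoters, had groups of 259 ± 38.4 FPKM in WT, against 195 ± 3.37 FPKM in the CKO-labelled libraries (SD, n = 3), and its pattern over the 6 libraries had Pearson's r of 0.98 to that of Ighm, rank 91 among all genes tested. Hnrnpll, an RNA-binding protein of plasma cell splicing, had groups of 1.87 ± 0.376 and 3.19 ± 0.301 FPKM, and Xbp1, the transcription factor of secretory cells, of 55.7 ± 4.89 and 72.0 ± 5.25 FPKM. Ebf1, which had the smallest p of this list, had groups of 42.3 ± 4.38 and 30.8 ± 0.825 FPKM. These named genes did not overlap between the groups. Of the 17, 5 stood apart and higher and 6 apart and lower, where the background was 11.5% and 14.3%.

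Of 23 tested genes for chains and chaperones of antibody assembly, 0 passed over all genes (limma). At an unadjusted p under 0.05, 9 were higher and 4 lower, where the background over all genes was 9.2% higher and 8.88% lower. The median log2 fold change was 0.04. That median was -0.03 after rescaling to a common total and -0.06 after quantile normalization, and it was 0.01 without WT replicate 2 or without PELI2-CKO replicate 1. The higher ones included parts of protein entry into the endoplasmic reticulum, such as Ssr4 at 21.4 ± 1.74 FPKM in WT, against 27.7 ± 1.27 FPKM in the CKO-labelled libraries and Spcs1 at 22.7 ± 1.76 and 26.8 ± 1.01 FPKM (SD, n = 3). Hspa5, the chaperone that holds unpaired heavy chains, stood at 172 ± 7.21 and 194 ± 1.89 FPKM. On the lower side Cd79b stood at 484 ± 62.5 and 377 ± 16.4 FPKM.

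Of 12 tested genes for receptors that bind antibody classes, 0 passed over all genes (limma). At an unadjusted p under 0.05, 2 were higher and 3 lower, where the background over all genes was 9.2% higher and 8.88% lower. The median log2 fold change was 0.07. That median was -0.06 without WT replicate 1, -0.05 without PELI2-CKO replicate 3, -0.03 with library weights and 0.19 without WT replicate 2. Fcmr, the IgM receptor of B cells, stood at 104 ± 7.85 FPKM in WT, against 91.5 ± 5.02 FPKM in the CKO-labelled libraries (SD, n = 3). Fcer1g, the chain shared by activating Fc receptors of myeloid cells, stood at 85.3 ± 13.6 and 115 ± 10.9 FPKM, and Fcgr3, an IgG receptor of such cells, at 21.2 ± 4.10 and 27.6 ± 2.76 FPKM.

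Markers of other cells that a B220+ fraction could hold also had different levels by group. Of 16 plasma cell markers, Jchain and Xbp1 among them, 11 had a higher and 5 a lower mean in the CKO-labelled libraries, and their summed level was 911 to 992 FPKM in WT and 962 to 1154 FPKM in the CKO-labelled libraries. Of the 16, 4 stood apart and higher and 5 apart and lower, where the background was 11.5% and 14.3%. Among the lower ones was the surface marker Sdc1 (CD138). It stood at 24.3, 20.5 and 20.5 FPKM in WT, against 19.2, 18.8 and 16.0 FPKM in the CKO-labelled libraries. Xbp1, among the higher ones, stood at 50.6, 56.2 and 60.4 FPKM in WT, against 77.7, 70.9 and 67.4 FPKM in the CKO-labelled libraries. Of 12 pro-B and pre-B markers 11 had a lower mean, with a sum of 544 to 768 FPKM in WT and 477 to 506 FPKM in the CKO-labelled libraries. Of these 12, 1 stood apart and higher and 5 apart and lower, beside the same background of 11.5% and 14.3%. Each of the 12 granulocyte markers had a higher mean, with a sum of 7409 to 10306 FPKM in WT and 11834 to 13817 FPKM in the CKO-labelled libraries. Of these 12, 10 stood apart and higher and 0 apart and lower, beside that background. The 12 mature B cell markers, of which Ighd is 1, were split at 6 higher and 6 lower. No marker in these lists was listed at 0 in any library, and the part of these cells in the constant region values was not tested.

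The genes whose pattern over the 6 libraries was most like each constant region are a description, since the highest of 12953 correlations over 6 points is high in any case. For Igha the 5 highest were Jchain, Igkv10-96, Igkv4-57, Igkv4-55 and Igkc, with Pearson's r from 0.992 to 0.995 and the same rank order as Igha. Among its 50 most similar genes 11 were immunoglobulin genes, constant regions included, where such genes made up 1.78% of genes tested. For Ighg1 there were 5 among 50, Igkv4-63, Ighv1-55, Ighv8-12, Igkv4-62 and Ighv1-77, and for Ighg2c 6, Ighg2b 4 and Ighg3 4. For Ighm and Ighd there were 0.

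For Ighg1 the 5 most similar genes were Pros1, Tmem63a, Vat1, Srp54 and Pgam1, with r from 0.983 to 0.990. Each had groups that did not overlap, like Ighg1, which the choice by likeness itself makes likely. The Srp54 values are uncertain, since that gene has near-identical copies. For Ighm they were Bicra, Spns3, Csnk1d, Dok3 and Cd72, with r from 0.996 to 0.999. Cd72 and Dok3, which restrain signalling through the B cell receptor, stood at 124 ± 23.3 and 211 ± 34.6 FPKM in WT, against 94.2 ± 6.30 and 172 ± 7.29 FPKM in the CKO-labelled libraries (SD, n = 3). For Ighd they were Arhgap15, Mapk11, Dusp4, Lmbrd1 and H2-Ob, with r from 0.978 to 0.992. Each overlapped between the groups as Ighd did, which the choice again makes likely.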

How the data were processed

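Per the labels' protocols, mRNA of bone marrow B220+ cells was purified with oligo(dT) beads, reverse transcribed with random hexamers and sequenced as single-end reads of 50 bases. Strand use is not stated. Build GRCm38.p6 and RSEM 1.2.12 are listed by the submitters' processing notes, as are Bowtie2 2.2.5, HISAT2 2.0.4 and DESeq2 1.4.5, without saying what each did. The values are the FPKM per gene that the authors deposited, with no scaling between libraries stated. Count models were therefore not applied.

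Depth was found by searching the total that made FPKM times length a whole number, within 0.03 reads, for genes with 1 annotated transcript and under 6 reads. Per library, 3752 to 4152 genes entered, and 99.3% to 99.5% of them gave whole reads. Limma 3.58.1 (R 4.3.3, lmFit, eBayes with a trend, two-sided, Benjamini-Hochberg over all genes tested) was run on log2(FPKM + 1) without a replicate block, after a test on simulated data. Shares, sums and ratios, 1 value per library, were compared by two-sided exact permutation tests (scipy 1.17.1). Ratios in log2 had 1 added to both terms. Sequences come from GENCODE M21 (GRCm38).

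The genes and lists were chosen with earlier results of these data known. Named were the 8 genes, partner chains, up to 6 list genes with the smallest p, and the 5 genes most correlated with a member. Shld3 of the switching list had no row matched. Another gene of that list is not reported here. T cell, monocyte, erythroid and plasmacytoid dendritic cell markers were counted too: 7 of 9, 8 of 8, 8 of 8 and 9 of 10 tested genes had a higher mean under the knockout label, and of basophil and mast cell markers 2 of 6. Alternatives were pseudocounts of 0.1 and 0.5, no filter or one of 5 FPKM, other scalings, no trend, library weights, a replicate block, other denominators or length weights for shares, and each library left out.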

Additional observations from a re-analysis of the deposited data

How the results depend on the processing

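The number of constant regions past the threshold was 0, and was 1 (Ighg1) with the replicate number as a block and 0 to 1 with single libraries left out, the 1 being without PELI2-CKO replicate 3. The limma adjusted p of Ighg1 was 0.0425 with the replicate block and ran from 0.0425 to 0.368 over all alternatives. Same-numbered libraries correlated in their deviations at 0.101, 0.036 and 0.09, and differently numbered ones at -0.107 to 0. These values do not settle whether the numbers pair the samples, and the main fit did not pair them. The block changed no other call among these genes. The log2 fold change of Ighd turned to -0.0631 with a common total, -0.0599 with quantile normalization and -0.0522 with library weights, and ran from -0.0917 to 0.13 with libraries left out. That of Ighg3 ran from -0.0763 to 0.56 with libraries left out. Without Ighm in the denominator the difference in share was -0.0092 percentage points for Ighg2b and -1.17 for Igha. With libraries left out the difference in share ran from -0.035 to 0.0239 percentage points for Ighg3 and from -0.0186 to 0.0005 for Ighe, and that of the log2 ratio of Igha to Jchain from -0.0145 to 0.0765. The count of called granulocyte markers was 0, and 0 to 1 with libraries left out. Over all genes 3 passed, against 6 with a common total or without a trend, 2 with a pseudocount of 0.1 or no filter, 1 with a filter of 5 FPKM, and 1 to 13 with libraries left out, the 13 being without PELI2-CKO replicate 3. The causes were not tested. The other shares among the 8 genes, and the other 5 of the 6 sums and ratios tested, kept their direction under each alternative run. The untested ratios were not recomputed. The number of libraries limits these tests, and depth limits Ighe.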
